A study of Danio rerio with 33 samples.

Results

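The genes gdf9, bmp15, nobox, figla, zar1 and buc are 6 zebrafish genes known for their work in the oocyte. They were taken by symbol from a table of 30490 genes, and all 6 were present. Their RNA was followed in adult ovary, adult testis and whole embryos at the stage of 10 somites. The 4 gonad groups were ovary and testis of adult kctd15 mutants, with ovary and testis of adult wild-type fish as their controls. The 7 embryo groups were kctd15 mutants, and wild-type embryos given 100 pg kctd15, 5 pg AP2 with 100 pg kctd15, 5 pg AP2-P59 with 100 pg kctd15, 5 pg AP2, or 5 pg AP2-P59, and wild-type embryos for which no injection is named. Every group had 3 libraries from biological replicates, 33 in all. The labels do not say which of the kctd15 genes was mutated, which AP2 gene or form of nucleic acid was injected, what distinguishes AP2-P59, or whether a library held 1 animal or a pool.

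Fish oocytes grow inside follicles of somatic cells and lay down RNA and protein for the embryo before the egg is shed. Oocytes signal to the follicle cells around them through secreted ligands of the TGF-beta family, run an oocyte programme under their own transcription factors, and sort germ-cell determinants through a transient structure, the Balbiani body. Gdf9 and Bmp15 are such ligands, Nobox and Figla such transcription factors, Zar1 an RNA-binding protein of stored maternal RNA, and Buc the organiser of the Balbiani body in zebrafish. Kctd15, mutated or injected here, is known for restraining AP-2 transcription factors and the neural crest.

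Libraries held 15152199 to 24131756 estimated counts. Levels are given in CPM, the usual measure of a gene's estimated counts relative to the library's total, scaled by TMM over all 33 libraries. They are not corrected for gene length, so each gene is compared between samples. Sums over lists, and the genes named as the largest parts of a sum, also depend on gene length. Summed zona pellucida, spermatogenic and embryo marker genes were each highest in the libraries labelled with their tissue. In sum, granulosa and theca genes were not highest in ovaries. The 16 genes of that list summed to 596 to 754 CPM in the 6 ovaries and 771 to 1762 CPM in the 6 testes. In wild-type ovaries cyp11a1 and cyp17a1, with means of 312 and 170 CPM, were the largest parts of the sum. Of the 16 genes 4 were called higher and 8 lower in wild-type ovary than in testis, beside 28.9% and 41.6% of all genes. The summed level of 13 zona pellucida genes was 24730 to 35240 CPM in the 6 ovaries and 16.1 to 33.9 CPM in the 6 testes. A list of 18 spermatogenic genes summed to 79.3 to 138 CPM in ovaries and 3152 to 3938 CPM in testes. A list of 12 neural, muscle and notochord genes summed to 939 to 1543 CPM in embryos. Of the 2 kctd15 genes, kctd15a was higher in all mutant embryos (199 to 220 CPM) than in wild-type embryos (42.8 to 61.4 CPM), and kctd15b was lower in all mutant ovaries (0.261 to 0.927 CPM) than in wild-type ovaries (1.78 to 4.42 CPM). In embryos kctd15b was higher in all mutants (5.51 to 7.96 CPM) than in wild type (4.03 to 4.65 CPM). In testes kctd15b overlapped between genotypes, at 0.350 to 0.930 CPM in mutants and 0.485 to 1.75 CPM in wild type. In injected embryos kctd15a overlapped between AP2-P59 with kctd15 (44.1 to 127 CPM) and AP2-P59 alone (37.1 to 68.3 CPM). It also overlapped between kctd15 alone (56.6 to 121 CPM) and wild type. After AP2 with kctd15 it was higher in all libraries (72.2 to 158 CPM) than after AP2 alone (49.4 to 67.5 CPM). Kctd15b was lower in all libraries given kctd15 than in their matched controls. It was at 0.494 to 1.83 CPM after AP2 with kctd15 and 3.86 to 5.42 CPM after AP2 alone. It was at 1.596 to 3.46 CPM after AP2-P59 with kctd15 and 3.97 to 7.94 CPM after AP2-P59 alone. In the ovaries, 2 mutant libraries stood apart. Replicate 3 held 166818 CPM of 9 liver and egg yolk precursor genes, against 4.50 and 25.1 CPM in the other mutant ovaries and 16.3 to 3887 CPM in wild-type ovaries. Replicate 2 held 36.5 CPM of 7 stroma and smooth muscle genes, against 451 and 163 CPM in the other mutant ovaries and 205 to 323 CPM in wild-type ovaries. Mutant over wild-type differences in ovary of the 6 genes, of smad7, star and lhcgr and of the follicle-cell list are given with and without these libraries.

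**Figure D1:**
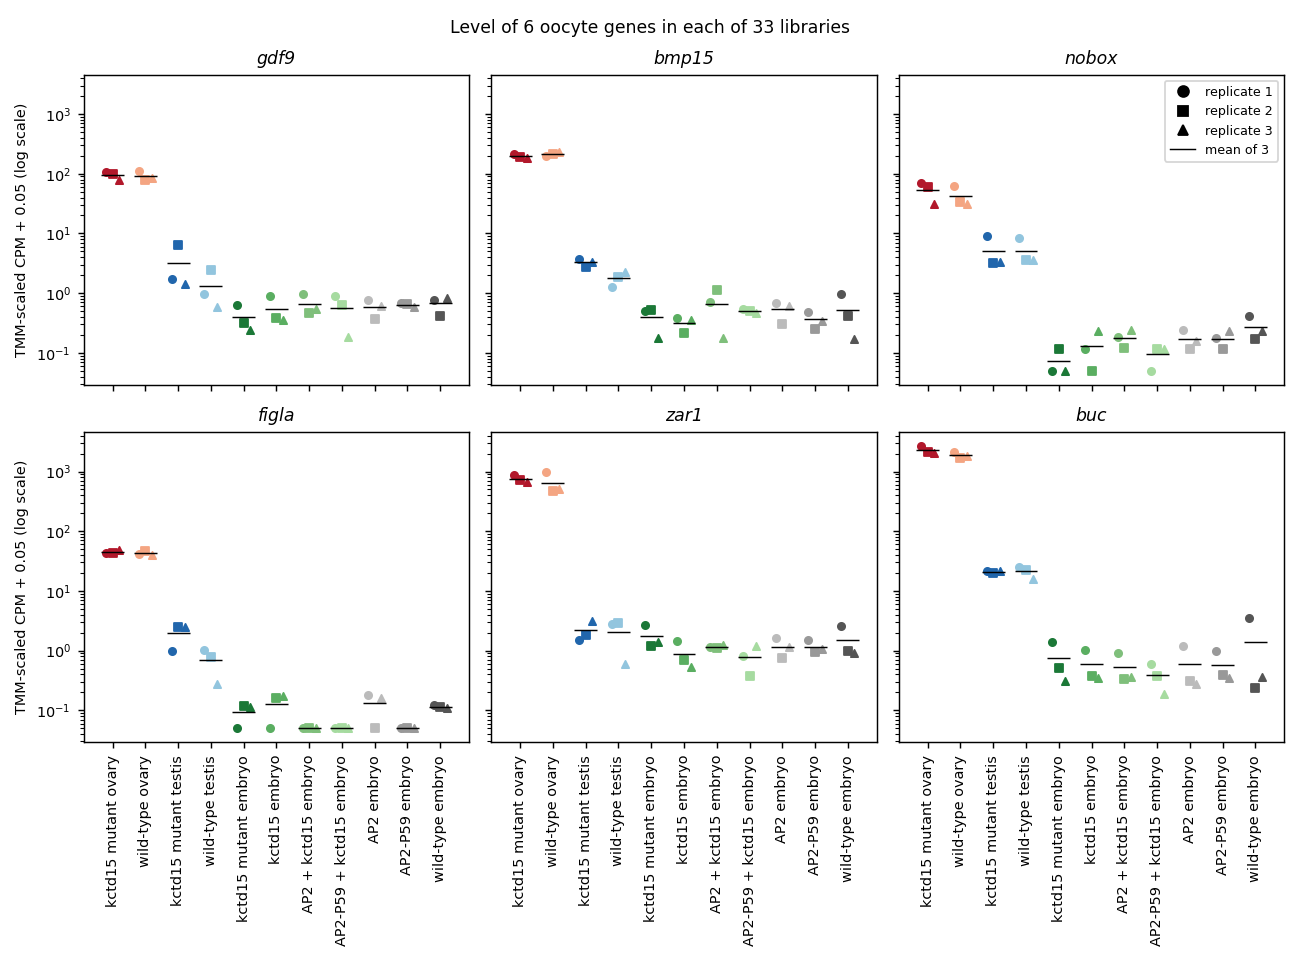
Level of each of the 6 oocyte genes in every library of the 11 groups, as TMM-scaled CPM plus 0.05 on a log axis; symbols mark the replicate number and the short line the mean of 3. For all 6 genes every ovary library lay above every testis library, and buc in testis (16.1 to 25.0 CPM) lay above every embryo library (at most 3.51 CPM). Of all genes tested 28.9% were called higher in wild-type ovary than in testis, and the share without overlap was not counted.

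The comparison of kctd15 mutant with wild-type ovaries addresses the effect of the mutation on the female gonad. The ligands, the transcription factors, zar1 and buc were all present at high counts in every ovary of both genotypes, with 442 to 39934 estimated counts per library. None of the 6 passed the test between genotypes, and for each gene the libraries of the genotypes overlapped. In bulk tissue, fewer oocytes and less RNA per oocyte cannot be told apart.

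Gdf9 and Bmp15, the secreted ligands, were measured at similar levels in both genotypes. The gdf9 level was 106, 101 and 77.3 CPM in mutant ovaries and 112, 79.2 and 85.4 CPM in wild-type ovaries. Both genotypes had libraries near 80 and above 100 CPM, so their ranges overlapped almost in full. The bmp15 level was 217, 194 and 187 CPM in mutant ovaries, against 199.6, 216 and 227 CPM in wild-type ovaries. The lowest values were in mutants, yet mutant replicate 1 lay above 2 of the wild-type libraries. The estimated mutant over wild-type difference was 0.07 for gdf9 (95% interval -1.12 to 1.27) and -0.07 for bmp15 (-0.51 to 0.37) on the log2 scale.

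The transcription factor genes behaved differently among themselves in how much replicates varied. For nobox, a homeobox factor needed in mouse oocytes, the level was 70.3, 59.4 and 30.8 CPM in mutant ovaries and 63.2, 33.5 and 31.5 CPM in wild-type ovaries. The spread within each genotype was about as wide as the full range, with a mean of 53.5 ± 20.4 CPM in mutants and 42.7 ± 17.8 CPM in wild type (SD, n = 3 each). For figla, a basic helix-loop-helix factor known in mouse to activate zona pellucida genes, the level was 43.2, 43.5 and 48.7 CPM in mutant ovaries and 41.0, 47.1 and 39.2 CPM in wild-type ovaries. All 6 ovaries lay within a narrow band, with means of 45.1 ± 3.06 CPM in mutants and 42.4 ± 4.12 CPM in wild type (SD, n = 3 each). The log2 difference was 0.36 for nobox (95% interval -0.67 to 1.39) and 0.13 for figla (-0.76 to 1.01).

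Zar1, which binds stored RNA, and buc, which builds the Balbiani body, had broader differences between libraries than figla. The zar1 level was 881, 718 and 657 CPM in mutant ovaries and 966, 477 and 506 CPM in wild-type ovaries. Wild-type replicate 1 was higher than every mutant library and the other wild-type libraries were lower than all of them. The buc level was 2668, 2088 and 2077 CPM in mutant ovaries and 2163, 1656 and 1839 CPM in wild-type ovaries. Mutant libraries lay mostly above wild-type ones, with overlap through wild-type replicate 1. The log2 difference was 0.25 for zar1 (95% interval -0.77 to 1.27) and 0.31 for buc (-0.19 to 0.81).

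With edgeR's quasi-likelihood test, 0 of the 6 genes were called between mutant and wild-type ovaries at an adjusted p under 0.05, where 0.553% of all 25870 genes tested were called. None had an unadjusted p under 0.05 either, against 3827 of all genes, and DESeq2 and limma-trend called 0 of the 6. The adjusted p lay between 0.59 for buc and 0.98 for gdf9. The median log2 difference of the 6 genes was 0.19, beside 0.05 over all genes tested. Without mutant replicate 3, the library rich in liver transcripts, the differences ran from -0.04 for bmp15 to 0.62 for nobox and 0 of the 6 were called. Without mutant replicate 2, the library low in stroma transcripts, they ran from -0.05 for bmp15 to 0.36 for buc, again with 0 called. The 95% intervals include differences of up to 2.62-fold for nobox and 2.41-fold for gdf9 and zar1.

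**Figure D2:**
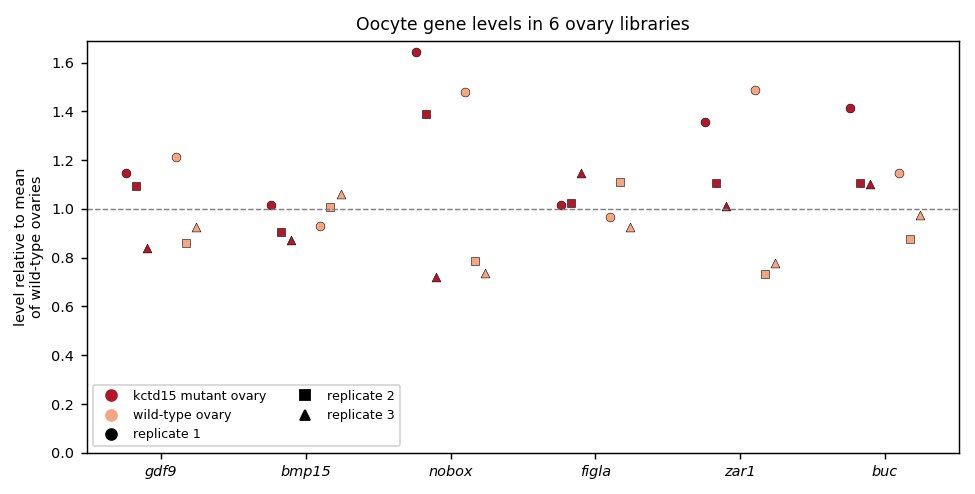
Level of each gene in the 3 kctd15 mutant and 3 wild-type ovary libraries, divided by the mean of the wild-type ovaries. Libraries of the genotypes overlap for all 6 genes; for nobox the ratio runs from 0.720 to 1.64 among mutants and from 0.736 to 1.48 among wild-type ovaries.

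Replicate 1 of the wild-type ovaries was the highest of its group for gdf9, nobox, zar1 and buc. The same library held the largest sum of 11 further oocyte transcription factor and chromatin genes among the wild-type ovaries. That sum was 4220, 2902 and 2931 CPM in mutant ovaries and 5447, 2487 and 2571 CPM in wild-type ovaries. Its largest part was 1 gene, h1m, at 2352, 1286 and 1593 CPM in mutant ovaries and 3488, 1268 and 1290 CPM in wild-type ovaries. The libraries high in that sum were again replicate 1 in each genotype, and the genotypes overlapped. The part of this difference between libraries in the levels of the 6 genes was not tested.

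In testis the same comparison asks about the male gonad, where these genes were low but counted in every library. The ligand gene bmp15 and the transcription factor gene figla gave the clearest differences, with estimates of 1.88-fold and 3.13-fold higher in mutant testes, but neither passed edgeR's test over all genes. The transcription factor gene nobox, zar1 and buc had estimates close to no difference.

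For bmp15 the level was 3.68, 2.69 and 3.34 CPM in mutant testes, against 1.23, 1.82 and 2.18 CPM in wild-type testes. All 3 mutant libraries lay above all 3 wild-type libraries, and the share of all genes separated in this way was not counted. The log2 difference was 0.91 with a standard error (SE) of 0.22 and a 95% interval of 0.43 to 1.40, and edgeR gave an adjusted p of 0.25. Figla was measured at 0.930, 2.42 and 2.45 CPM in mutant testes and at 0.955, 0.727 and 0.230 CPM in wild-type testes. Mutant replicates 2 and 3 were high, and mutant replicate 1 lay just below wild-type replicate 1, so the groups overlapped. The log2 difference of figla was 1.65 with an SE of 0.46 and a 95% interval of 0.64 to 2.65, and edgeR gave an adjusted p of 0.35.

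Gdf9 was at 1.71, 6.44 and 1.37 CPM in mutant testes and at 0.915, 2.42 and 0.536 CPM in wild-type testes. Replicate 2 was the highest library in both genotypes, and the groups overlapped. Its log2 difference of 1.33 had a 95% interval of 0.01 to 2.65 and an adjusted p of 0.71 in edgeR, and was 0.26 without mutant replicate 2. Without wild-type replicate 2 the estimate was 2.18. Each of these fits left out a high library and kept its equally numbered counterpart in the other genotype. Within every replicate number the mutant testis lay above the wild-type testis. Over all alternatives, with the replicate block among them, the adjusted p of gdf9 in edgeR, DESeq2 or limma-trend was 0.36 or higher.

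The remaining 3 genes showed no estimate away from 0. The nobox level was 8.92, 3.19 and 3.27 CPM in mutant testes and 8.32, 3.51 and 3.48 CPM in wild-type testes. In both genotypes replicate 1 was the high library and the other libraries lay together. The zar1 level was 1.47, 1.79 and 3.11 CPM in mutant testes and 2.71, 2.83 and 0.536 CPM in wild-type testes. Wild-type replicate 3 was the lowest library and mutant replicate 3 the highest, so the ranges overlapped. The buc level was 21.2, 20.1 and 21.3 CPM in mutant testes and 25.0, 22.3 and 16.1 CPM in wild-type testes. Mutant libraries lay within the range of the wild-type ones. Log2 differences were 0.02 for nobox (95% interval -1.03 to 1.07), 0.11 for zar1 (-0.99 to 1.22) and 0.01 for buc (-0.49 to 0.51).

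In edgeR, 0 of the 6 genes were called between mutant and wild-type testes, where 0.0696% of all genes tested were called. At an unadjusted p under 0.05 there were 3 of the 6, namely bmp15, figla and gdf9, against 1813 of the 25870 genes. DESeq2 called bmp15 and figla, each with an adjusted p of 0.034, among 293 genes it called in all, and limma-trend called 0 of the 6. Equally numbered testis libraries deviated together from their group means, and with replicate number as a block edgeR called 10 genes in place of 18, with an adjusted p of 0.25 for bmp15 and 0.39 for figla. The median log2 difference of the 6 genes was 0.51, beside 0.07 over all genes tested.

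Other lists of oocyte genes gave 0 calls in mutant testes with edgeR, where 0.0696% of all genes tested were called. With so low a share, 0 calls in short lists say little about the lists. The 13 zona pellucida genes summed to 17.9 to 21.1 CPM in mutant testes and 16.1 to 33.9 CPM in wild-type testes, none was called, and their median log2 difference was -0.65. In the list of 11 oocyte transcription factor and chromatin genes 0 were called by edgeR, with a median of 0.16. Sertoli and Leydig genes summed to 2323 to 3524 CPM in mutant testes and 2872 to 5872 CPM in wild-type testes, and a list of 10 blood and leukocyte genes to 109 to 240 CPM in mutants and 228 to 670 CPM in wild type. None of either list was called by edgeR, and their part in the values of bmp15 and figla was not tested.

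**Figure D3:**
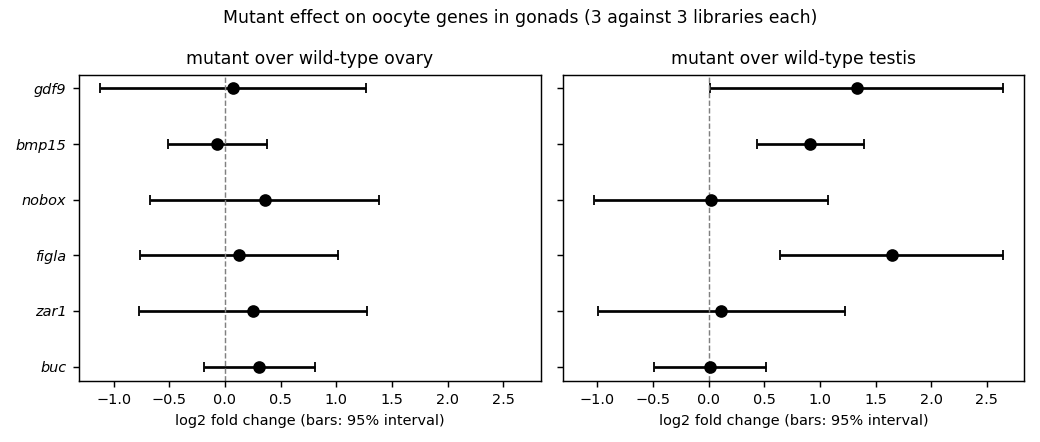
Log2 fold change of each gene in kctd15 mutant over wild-type ovaries (left) and testes (right), with 95% intervals from the edgeR fit of all 12 gonad libraries. Every ovary interval includes 0; in testis those of gdf9, bmp15 and figla lie above 0, at 0.01 to 2.65, 0.43 to 1.40 and 0.64 to 2.65 before any adjustment over all genes.

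Whether the mutant effect differed between ovary and testis was tested directly, as the ovary effect minus the testis effect. EdgeR called 0 of the 6 genes, where 0.0812% of all genes tested were called. The difference was -0.98 for bmp15 (95% interval -1.64 to -0.33, adjusted p = 0.32), -1.52 for figla (-2.85 to -0.19, adjusted p = 0.41) and -1.26 for gdf9 (-3.03 to 0.52, adjusted p = 0.59) in edgeR. The gdf9 value was -0.18 without mutant testis replicate 2 and -2.11 without wild-type testis replicate 2. Without mutant ovary replicate 3 the differences were -0.94 for bmp15, -1.59 for figla and -1.14 for gdf9. Bmp15 and figla were the 2 of the 6 with an unadjusted p under 0.05, against 2826 of all genes. For nobox, zar1 and buc the differences were 0.33, 0.13 and 0.30. DESeq2 and limma-trend called 0 of the 6, and with replicate number as a block edgeR called 13 genes overall in place of 21 and again 0 of the 6.

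Between the gonads the 6 genes differed far more than between genotypes. All 6 were higher in ovary than in testis in wild-type fish, where 70.5% of all genes tested were called and 28.9% were called higher in ovary. The log2 difference was 6.10 for gdf9, 6.89 for bmp15, 3.03 for nobox, 6.01 for figla, 8.28 for zar1 and 6.44 for buc, with edgeR's adjusted p between 4.3e-09 for bmp15 and 0.00024 for nobox. Their median was 6.27, beside -0.72 over all genes tested. Without wild-type testis replicate 2 the gdf9 difference was 6.96.

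In kctd15 mutants the same 6 genes were higher in ovary than in testis, where 66.8% of all genes tested were called and 27.7% were called higher in ovary. The log2 differences were 4.85 for gdf9, 5.91 for bmp15, 3.36 for nobox, 4.49 for figla, 8.41 for zar1 and 6.73 for buc. Without mutant testis replicate 2, the library with 6.44 CPM of gdf9, the gdf9 difference was 5.92, and without mutant testis replicate 1, with 8.92 CPM of nobox, the nobox difference was 3.98. Without mutant ovary replicate 3 the differences ran from 3.64 for nobox to 8.50 for zar1, and 6 of 6 were called. No ovary library overlapped a testis library for any of the 6 genes in either genotype. The share of all genes without such overlap was not counted, and with 66.8% of all genes called the separation alone does not set these genes apart. The 2 contrasts use different fish, and the values of wild type and mutants stand side by side without a further test than the one above.

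Nobox had the smallest ovary over testis difference of the 6 in both genotypes. In wild type its 95% interval of 1.91 to 4.15 lay below that of every other member, the nearest being gdf9 with 4.58 to 7.62. In mutants its interval of 2.23 to 4.50 overlapped those of gdf9 (3.43 to 6.26) and figla (3.46 to 5.52). Differences between genes were not tested.

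Set against the mean of wild-type ovaries, nobox in testis reached 20.9%, 7.46% and 7.66% in mutants and 19.5%, 8.22% and 8.15% in wild type. This share was higher in replicate 1 of both genotypes than in any other testis. For gdf9 the share was 0.581% to 6.99% over the 6 testes, for figla 0.541% to 5.77%, for bmp15 0.576% to 1.72%, for buc 0.852% to 1.33% and for zar1 0.0824% to 0.479%. The summed zona pellucida genes were at 0.0563% to 0.119%. Lhx8a, a LIM-homeobox gene of germ cells, had a share of 4.67% to 16.1%, which overlapped those of nobox, gdf9 and figla. Lhx8a was chosen after its values were seen. The oocyte genes zar1l, cpeb1b and pabpc1l, read in the same way, had lower shares than lhx8a. These were 0.599% to 1.31%, 0.973% to 1.43% and 0.304% to 0.688%.

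**Figure D4:**
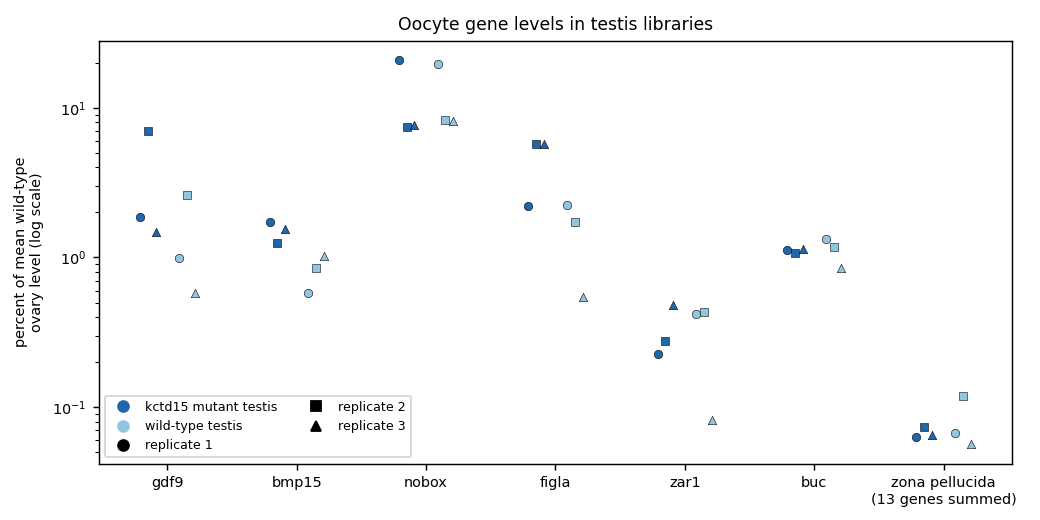
Level of each gene in the 3 kctd15 mutant and 3 wild-type testis libraries, as a percentage of its mean in wild-type ovaries on a log axis, with the sum of 13 zona pellucida genes at the right. Nobox lies between 7.46% and 20.9% in all 6 testes, and zar1 between 0.0824% and 0.479%.

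Embryos at 10 somites held only traces of the 6 genes. Over the 21 embryo libraries, gdf9 had 2 to 14 estimated counts, bmp15 2 to 15, nobox 0 to 5, figla 0 to 2, zar1 5 to 41 and buc 2 to 49. Nobox was at 0 in 4 libraries and figla in 12. Figla had 0 counts in all 3 libraries of 3 groups, which allows a level of up to 0.0660 CPM after AP2 with kctd15, 0.0669 CPM after AP2-P59 with kctd15 and 0.0631 CPM after AP2-P59 alone (3 counts over the group, counting error only).

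Nobox, figla, bmp15 and buc passed the count filter of the gonad and embryo fit only through the gonads. They were thereby selected for being high there, and their calls carry no weight. Bmp15 had 13, 6 and 2 counts in wild-type and 7, 7 and 2 in mutant embryos. Buc had 49, 3 and 5 counts in wild-type and 21, 7 and 4 in mutant embryos. Gdf9 stood at the edge of the filter, with 10, 6 and 13 counts in wild-type and 9, 4 and 3 in mutant embryos. Only zar1 clearly passed in the embryos. Zar1 was called higher in wild-type ovaries than in wild-type embryos. Gdf9 was called too, but with so few embryo libraries at the minimum count of 10 its call is given no weight either. Of all genes tested 66.4% were called and 30.9% were called higher in ovary. EdgeR's log2 differences were 7.19 for gdf9, 8.85 for bmp15, 8.82 for zar1 and 10.50 for buc. Without wild-type embryo replicate 1 they were 9.74 for bmp15, 9.50 for zar1 and 12.88 for buc, whose embryo level was 3.51, 0.184 and 0.305 CPM. Nobox rested on 2015 counts in the 3 ovaries and 10 in the 3 embryo libraries, a ratio of levels of 203 with a counting interval of 110 to 424. For figla, with 1970 counts in the 3 ovaries and 3 in the 3 embryo libraries, the ratio of levels was 662 with a counting interval of 226 to 3211.

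Wild-type testes were compared with wild-type embryos in the same way. Bmp15 (log2 1.91) and buc (4.02) were called higher in wild-type testes than in wild-type embryos. These calls carry no weight either, as both genes passed the filter only through the gonads. The same selection holds for figla and nobox, whose ratios below only describe the counts. Of all genes tested 64.5% were called and 33.7% were called higher in testis. Without wild-type embryo replicate 1 these differences were 2.81 for bmp15 and 6.40 for buc. Figla rested on 48 counts in testes and 3 in embryos, a ratio of 9.82 with a counting interval of 3.17 to 49.3. Nobox rested on 387 and 10 counts, a ratio of 23.8 with an interval of 12.8 to 49.9. Gdf9 (log2 1.04, adjusted p = 0.17) and zar1 (0.50, adjusted p = 0.45) did not pass in edgeR. Both comparisons with the embryo share the wild-type embryo libraries.

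The order of the 11 group means was led by the ovaries for every gene. After the ovaries came the testes, and bmp15, nobox, figla and buc had no testis library overlapping the next embryo group. These are the genes that passed the filter only through the gonads. The share of all genes without such overlap was not counted. Between wild-type testes and wild-type embryos 64.5% of all genes tested were called, and 33.7% were called higher in testis. For gdf9 and zar1, wild-type testis overlapped the highest embryo group, wild-type embryos for gdf9 (1.29 CPM in testis, 0.626 CPM in embryos) and mutant embryos for zar1 (2.02 CPM in testis, 1.72 CPM in embryos). Neighbouring embryo groups overlapped for all 6 genes.

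Mutant and wild-type embryos were compared for the 4 genes that passed the count filter, gdf9, bmp15, zar1 and buc. The filter left out nobox, with 0, 1 and 0 counts in mutant and 5, 2 and 3 in wild-type embryos, and figla, with 0, 1 and 1 in mutant and 1, 1 and 1 in wild-type embryos. EdgeR called 0 of the 4, where 4.09% of all 22305 genes tested were called, and none had an unadjusted p under 0.05, against 4425 of all genes. DESeq2 and limma-trend also called 0. Log2 differences were -0.84 for gdf9 (95% interval -2.14 to 0.46), -0.41 for bmp15 (-1.93 to 1.103), 0.24 for zar1 (-0.82 to 1.30) and -0.92 for buc (-2.85 to 1.01). Without wild-type embryo replicate 1, with 49 counts of buc against 3 and 5 in the others, the buc difference turned to 1.47 and the bmp15 difference to 0.50. That fit kept mutant replicate 1, the highest of its own group for buc with 21 counts. Without mutant embryo replicate 1 the zar1 difference was -0.20. No direction between mutant and wild-type embryos can be read for any of the 4 genes at these counts, as every interval includes 0.

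Injection of kctd15 was compared with its matched control in 3 settings. After kctd15 alone against wild type 0 of 4 genes were called, where 0% of all genes were called, with log2 differences from -1.29 for buc to -0.35 for gdf9. Without wild-type embryo replicate 1 the buc difference turned to 1.099 and the bmp15 difference to 0.10. That fit kept replicate 1 after kctd15, the highest of its own group for buc with 15 counts. After AP2 with kctd15 against AP2 alone 0 of 4 were called, where 0.197% of all genes were called, with differences from -0.17 for buc to 0.31 for bmp15, and each of the 4 took both signs when 1 library was left out (buc from -0.85 to 1.00). After AP2-P59 with kctd15 against AP2-P59 alone 0 of 4 were called, where 0% of all genes were called, with differences from -0.64 for buc to 0.49 for bmp15, and buc ran from -1.19 to 0.077 and gdf9 from -0.73 to 0.24 when 1 library was left out. In these edgeR tests 0 of the 4 genes had an unadjusted p under 0.05, against 763, 1156 and 906 of all genes, and DESeq2 and limma-trend called 0 of the 4. With replicate number as a block edgeR called 12, 143 and 13 genes overall and 0 of the 4. Averaged over the 3 settings edgeR called 0 of 4 genes, where 0.525% of all genes were called (298 genes with the block, 117 without). The mutant and kctd15-alone comparisons share the wild-type embryos.

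Counts of buc in embryos were highest in replicate 1. Buc had 21, 7 and 4 counts in mutant embryos, 15, 6 and 5 after kctd15, and 13, 4 and 5 after AP2 with kctd15. It had 8, 5 and 2 counts after AP2-P59 with kctd15, 18, 4 and 4 after AP2, 15, 5 and 5 after AP2-P59, and 49, 3 and 5 in wild-type embryos. Replicate 1 was the highest library for buc in 7 of 7 embryo groups, while replicates 2 and 3 had no common order, with the largest value in wild type. Of the 21655 genes that averaged 1 CPM or more over all libraries, 6.08% had replicate 1 highest in all 7 embryo groups.

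Replicate 1 was highest for gdf9 in 6 embryo groups and for bmp15 and zar1 in 5 each. Of the genes in that background, 12.2% had replicate 1 highest in at least 6 groups and 19.9% in at least 5. Nobox and figla had replicate 1 highest in 2 groups each. In the gonads nobox had replicate 1 highest in 4 of 4 groups, as for 7.67% of the background genes. Without the replicate 1 libraries of all embryo groups, 0 of the 4 genes tested with all libraries were called in any embryo comparison. This alternative was added after the data were seen. In the libraries left, buc had at most 7 counts, below the filter's minimum count of 10. The lack of a call there therefore says nothing about buc. The labels do not say what the replicate numbers stand for, and their part in the levels of these genes was not tested.

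**Figure D5:**
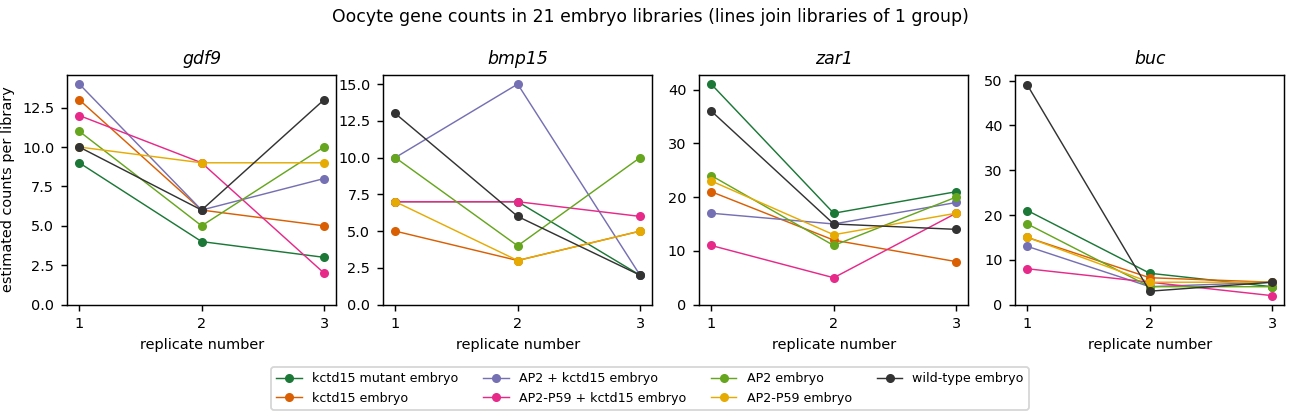
Estimated counts of gdf9, bmp15, zar1 and buc in 21 embryo libraries by replicate number, with lines joining the 3 libraries of a group. For buc the replicate 1 library is the highest in 7 of 7 groups, from 8 counts after AP2-P59 with kctd15 to 49 in wild-type embryos.

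Genes that work with the 6 were read from lists. Of 27 receptors, Smads, activin and inhibin subunits and follistatins that belong to the pathway of Gdf9 and Bmp15, 0 were called between mutant and wild-type ovaries, where 0.553% of all genes were called, with a median log2 difference of -0.01. Among the 4 with the smallest p, smad7, an inhibitory Smad, was at 2.78, 1.20 and 1.98 CPM in mutant ovaries and 4.54, 8.96 and 4.13 CPM in wild-type ovaries. All 3 mutant libraries lay below the wild-type ones, though the share of all genes separated in this way was not counted. The log2 difference of smad7 was -1.54 with an adjusted p of 0.13 in edgeR. It was -1.56 without mutant replicate 3, -1.28 without mutant replicate 2 and -1.09 without wild-type replicate 2. Smad3b (log2 1.14), smad4, the common partner Smad (-1.04), and the type I receptor gene bmpr1bb (-0.63) had adjusted p between 0.18 and 0.26 in edgeR. Between wild-type ovaries and testes 8 of the 27 were called higher and 14 lower in ovary, beside 28.9% and 41.6% of all genes. Chosen after their values were seen, the type I receptor genes bmpr1ba (3.12) and bmpr1ab (1.54) were higher in ovary, and the follistatin genes fsta (-3.42) and fstb (-8.09), whose products bind activins, were lower. Fstb was at only 0.242, 0.127 and 0.0712 CPM in wild-type ovaries and passed the count filter only through the testes. It was thereby selected for being high there, and its value carries no weight.

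Between mutant and wild-type ovaries, where 0.553% of all genes were called, 1 of 11 oocyte transcription factor and chromatin genes was called. This was sox19b, a SoxB gene with maternal RNA. It was at 93.2, 56.3 and 79.2 CPM in mutant ovaries and 42.3, 31.1 and 31.8 CPM in wild-type ovaries. The genotypes did not overlap, though the share of all genes without overlap was not counted. The log2 difference of sox19b was 1.16 (SE 0.23) with an adjusted p of 0.0499 in edgeR. That call was lost in 9 of 12 alternatives, with edgeR's adjusted p up to 0.20, while DESeq2, limma-trend and the fit without mutant replicate 2 kept it. In wild-type fish 10 of the 11 were higher in ovary than in testis and sebox was lower, beside 28.9% of all genes higher and 41.6% lower.

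The 13 zona pellucida genes, which encode the egg envelope, were all called higher in wild-type ovary than in testis, beside 28.9% of all genes. Their median log2 difference was 10.78, beside -0.72 over all genes. Together they summed to only 16.1 to 33.9 CPM in wild-type testes, so the size of this difference rests on low testis levels. How many passed the filter only through the ovaries was not counted. Between mutant and wild-type ovaries 0 of them were called, where 0.553% of all genes were called, with a median of 0.20. Of 15 Balbiani body and germ plasm genes 0 were called between mutant and wild-type ovaries, with a median of 0.34. Between wild-type ovary and testis 8 were higher and 6 lower, beside 28.9% and 41.6% of all genes, and the lower ones included the germline RNA-pathway genes piwil1 (-3.50), piwil2 (-1.50) and tdrd6 (-1.06). Of 18 genes of stored RNA and its translation 0 were called between the ovaries, with a median of 0.14, and 13 were higher and 3 lower in wild-type ovary than in testis, beside the same shares of all genes. Without replicate 1 of either ovary group 1 of the 18 was called between the ovaries.

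Genes of the follicle cells that receive oocyte signals were read in the same way. Of 16 granulosa and theca genes 0 were called between mutant and wild-type ovaries, where 0.553% of all genes were called, with a median log2 difference of -0.64, beside 0.05 over all genes. Mutant replicate 2, low in stroma genes, was the lowest ovary for inha, an inhibin subunit gene, at 2.14 CPM beside 20.2 and 19.2 CPM in the other mutant ovaries and 32.3 to 37.3 CPM in wild-type ovaries. The same library was the lowest for the aromatase gene cyp19a1a (2.93 CPM) and for star (0.261 CPM), genes chosen after their values were seen. Other genes of the list went the other way. It was the highest of all ovaries for cyp11a1 (397 CPM) and cyp17a1 (196 CPM), and the highest mutant for fshr (5.07 CPM). The part of this library in the median was not tested beyond leaving it out. The median was -0.47 without mutant replicate 2 and -0.86 without mutant replicate 3. The steroidogenic gene star (-3.60, adjusted p = 0.16) and the gonadotropin receptor gene lhcgr (-1.90, adjusted p = 0.14) had the lowest p of that list in edgeR. Star was at 2.16, 0.261 and 1.28 CPM in mutant ovaries and 6.90, 33.4 and 3.84 CPM in wild-type ovaries, and its difference was -2.13 without wild-type replicate 2, -3.08 without mutant replicate 2 and -3.69 without mutant replicate 3. For lhcgr the difference was -1.62 without mutant replicate 2 and -1.91 without mutant replicate 3. The list summed to 596 to 702 CPM in mutant ovaries and 676 to 754 CPM in wild-type ovaries. The largest parts were cyp11a1, with means of 348 CPM in mutants and 312 CPM in wild type, and cyp17a1, with 179 and 170 CPM. One of 17 tested spermatogenic genes, spata18, was called higher in mutant ovaries, at 43.5, 68.3 and 38.4 CPM against 11.8, 4.64 and 3.202 CPM in wild type. Its log2 difference was 2.97 with an adjusted p of 0.014 in edgeR, 0.018 without mutant replicate 3, 0.11 when only the ovaries were fitted and 0.066 without wild-type replicate 2. In all of these lists, 0 genes were called between mutant and wild-type testes, where 0.0696% of all genes tested were called. With so low a share, 0 calls in short lists say little about the lists.

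Genes with the most similar pattern over the 33 libraries were sought by Pearson's r of log2 (CPM + 0.5) among 14872 named genes averaging 1 CPM or more. The 33 points share 3 tissues, so that r mostly reflects ovary against the rest, and 274 to 435 genes had r over 0.95 with each member. The highest r was 0.986 for gdf9 with slc25a25a, 0.994 for bmp15 with st6galnac1.2, 0.991 for nobox with fmn2b, 0.994 for figla with slc25a25a, 0.994 for zar1 with kpna7 and 0.993 for buc with cpeb1b. Next came zp3c and gbgt1l1 for gdf9, chia.4 and b4galnt2.2 for bmp15, oxr1b and cpdb for nobox, b4galnt2.2 and abhd18 for figla, pabpc1l and zp2l1 for zar1, and cdca9 and zar1l for buc. Within the 6 ovaries alone the r of these first pairs ran from -0.60 for gdf9 with slc25a25a to 0.88 for nobox with fmn2b. With a pseudocount of 5 in place of 0.5, 5 of the 18 pairs were again among the 3 nearest.

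In the transcript table, gdf9, bmp15, figla, zar1 and buc each matched 1 RefSeq transcript. In the 12 gonad libraries its estimated count was 0.995 to 1.01 times the gene's count, so the gene values rest on that transcript. No transcript was matched for nobox.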

How the data were processed

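Polyadenylated RNA was sequenced from 33 zebrafish samples, with stranded libraries per the labels' protocols. Per the submitters' processing notes, Trimmomatic 0.36, kallisto 0.43.0, edgeR and the GRCz10 build were used. The deposited gene table, of 30490 genes, and transcript table, of 54435 transcripts, hold estimated counts. The deposited normalized table gives the authors' CPM as a signal for 25374 genes and was used only for limma-trend. Kallisto divides reads of similar sequences by estimate, so counts of near-identical genes are less certain. No column lacked a sample.

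Gene counts were rounded to whole numbers, and edgeR 4.0.16 under R 4.3.3 tested them (scaling by TMM, filterByExpr with a minimum count of 10 and a minimum total of 15, robust quasi-likelihood F test, Benjamini-Hochberg adjustment over all genes, threshold 0.05, two-sided). The 12 gonad libraries (25870 genes), the 21 embryo libraries (22305 genes) and the 18 libraries without injection (26517 genes, for gonad against embryo) had a fit each. Standard errors are the log2 value over the square root of F, intervals are 95%, and intervals of ratios of counts and the floor of 3 counts cover counting error only. The procedure was tested on simulated data. Alternatives were RLE scaling, no count filter, DESeq2 1.42.0, limma-trend 3.58.1 on log2 (deposited CPM + 0.5), replicate number as a block, only the compared groups, and each replicate left out.

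The labels number replicates in every group without saying what a number marks. Between mutant and wild-type testes, libraries with the same number had deviations from their group's mean that correlated above 0.1 for all 3 numbers (0.44, 0.27 and 0.10). The 3 kctd15 injection comparisons met this mark for pairing too. The comparison of ovaries did not meet it (0.06, 0.05 and -0.05). Mutant against wild-type embryos missed it narrowly (0.33, 0.22 and 0.0997). The main tests did not use the pairing in any comparison. It entered only through the replicate block among the alternatives. The 6 genes and all lists were chosen with earlier results of these data known. All 6 genes are named; of each list the 4 genes with the smallest p between mutant and wild-type ovaries could be named, and for likeness the 3 genes with the highest r. Genomic positions and sequences are not given because the reference tables used describe another assembly or hold none.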

Additional observations from a re-analysis of the deposited data

How the results depend on the processing

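The count of called members kept its value in all alternatives run, for every comparison, with 2 exceptions. In mutant over wild-type testes DESeq2 called 2 of the 6 and each other alternative called 0. In wild-type testis over embryo, 3 of 5 were called when only the compared groups were fitted and 4 of 6 otherwise. In the main fit of that comparison nobox, figla, bmp15 and buc passed the filter only through the gonads. Of the 18 likeness pairs, 5 were shared with a pseudocount of 5. The replicate block changed no member's call; 6 of 6 stayed called in both ovary over testis comparisons and 0 in each genotype or injection comparison. Estimates near 0 changed sign: in testis, buc was -0.0128 with RLE, -0.0126 with DESeq2 and -0.0573 with only the compared groups (leaving out 1 library, -0.15 to 0.14); nobox was -0.0300 with limma-trend, -0.0022 with the replicate block and -0.0272 with only the compared groups (-0.59 to 0.55); zar1 ran from -0.34 to 0.46. In ovaries gdf9 ran from -0.0189 to 0.23. In the ovary effect minus the testis effect, leaving out 1 library gave -0.21 to 0.59 for zar1 and -0.19 to 0.95 for nobox. The cause was not tested. Counts over all genes moved more: 143 in ovaries became 1058 in DESeq2, 23 with only the ovaries and 33 to 142 without 1 library; 18 in testes became 293 in DESeq2, 119 in limma-trend, 7 with only the testes and 5 to 24 without 1 library; 21 for the difference of effects became 394 in DESeq2, 63 in limma-trend and 7 to 23 without 1 library; 912 in mutant embryos became 1661 in DESeq2, 2931 with the replicate block, 263 to 756 without 1 library and 343 without the replicate 1 libraries of all embryo groups, an alternative chosen after seeing the data. For kctd15 with AP2, 44 became 150 in DESeq2, 143 with the replicate block, 0 with only the compared groups, 2 to 32 without 1 library and 13 without the replicate 1 libraries. DESeq2 called 16, 16 and 231 for kctd15 alone, with AP2-P59 and averaged (0, 0 and 117 in edgeR). Depth limits the embryo values, where nobox and figla had at most 5 and 2 counts.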
